A study of Homo sapiens with 2 samples.

Results

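Transcripts of 9 enzymes that supply deoxynucleotides for DNA synthesis were examined after reduction of the histone demethylase KDM4A in LNCaP, a human prostate carcinoma line that responds to androgen. The 9 genes, RRM1, RRM2, TYMS, TK1, TK2, DTYMK, DUT, DCK and CMPK1, were selected by function from ribonucleotide reductase, the thymidylate cycle and the nucleoside and nucleotide kinases. Every probe set that the platform annotation gives to exactly 1 of these genes was used, which came to 23 of 44672 probe sets and 9 of 17689 measured genes. All 9 genes had a value. The shKDM4A cells had received lentivirus encoding a short hairpin RNA against KDM4A, and the control cells had received lentivirus made from pLKO.1 without an insert. Virus for both groups was produced in HEK293T cells, and RNA was taken 3 days after infection. There was 1 Affymetrix Human Genome U133 Plus 2.0 array in each group, so no test over replicates and no p-value could be had for any value here. The number of arrays limits the precision. Differences between the 2 cultures, infections or arrays cannot be told apart from the reduction of KDM4A. The control virus had no insert, so effects of carrying a hairpin cannot be told apart from it either.

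The authors normalised the arrays by RMA (robust multi-array averaging), and the deposited values were centred, so that the values of the 2 arrays summed to 0 in every row within 1e-06. A value is therefore a signal minus the mean of both arrays, taken to be on the log2 scale, and the control value is the mirror image of the shKDM4A value. Absolute levels are lost by this centring, and neither detection nor the level of a prostate marker could be read. A difference below is the shKDM4A value minus the control value. The mean over a gene's probe sets is its gene value, and the SD given with it is the spread between probe sets, not between cultures.

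Ribonucleotide reductase turns ribonucleotides into deoxynucleotides and is built from a catalytic subunit, RRM1, and a radical-bearing small subunit, RRM2. Thymidine nucleotides come either from the de novo cycle, in which DUT makes dUMP, TYMS methylates it to dTMP and DTYMK phosphorylates dTMP, or from salvage of thymidine by TK1 in the cytosol and TK2 in mitochondria. DCK salvages deoxycytidine and purine deoxynucleosides, and CMPK1 phosphorylates UMP, CMP and dCMP. In dividing cells RRM2, TK1 and TYMS are known as S-phase enzymes, whereas TK2 and DCK are known to vary less over the cell cycle.

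Promoter sequence is shown for both reductase subunits and for TK1 and TYMS, which are the salvage and de novo routes to dTMP, because RRM2 and TK1 were the lowest of the 9 genes while TYMS was among the 3 nearest to 0. Each run is the 250 bases before the outermost annotated start, from RefSeq on GRCh38.p14, in the direction of the gene. Capitals mark the letters of 4 motifs searched on both strands: an E2F motif (TTTCGCGC, TTTGGCGC, TTTCCCGC or TTTGCCGC), the CHR motif (TTTGAA), the CCAAT box (CCAAT) and the GC box (GGGCGG).
RRM2, chr2:10122318-10122567, plus strand: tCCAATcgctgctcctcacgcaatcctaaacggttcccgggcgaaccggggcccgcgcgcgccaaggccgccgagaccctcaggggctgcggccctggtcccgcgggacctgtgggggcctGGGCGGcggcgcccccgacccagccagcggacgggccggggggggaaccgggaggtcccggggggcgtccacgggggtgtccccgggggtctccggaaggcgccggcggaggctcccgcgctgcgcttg
RRM1, chr11:4094435-4094684, plus strand: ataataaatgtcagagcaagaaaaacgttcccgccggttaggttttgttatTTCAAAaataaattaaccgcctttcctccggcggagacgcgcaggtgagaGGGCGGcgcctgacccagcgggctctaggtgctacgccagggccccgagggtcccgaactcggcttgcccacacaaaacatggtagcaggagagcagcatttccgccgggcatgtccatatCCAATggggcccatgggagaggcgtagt
TK1, chr17:78187205-78187454, minus strand: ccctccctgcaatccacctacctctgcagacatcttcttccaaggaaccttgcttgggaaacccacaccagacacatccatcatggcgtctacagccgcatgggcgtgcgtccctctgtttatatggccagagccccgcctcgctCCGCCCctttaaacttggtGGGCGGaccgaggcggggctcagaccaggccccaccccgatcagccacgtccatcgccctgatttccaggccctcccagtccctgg
TYMS, chr18:657403-657652, plus strand: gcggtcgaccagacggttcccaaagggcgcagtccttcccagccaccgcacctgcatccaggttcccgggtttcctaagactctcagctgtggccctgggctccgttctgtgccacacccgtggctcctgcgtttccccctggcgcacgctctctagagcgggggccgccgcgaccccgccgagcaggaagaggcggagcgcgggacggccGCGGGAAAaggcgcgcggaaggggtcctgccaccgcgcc

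Letters of the E2F motif lay in the TYMS window, at position -39 from the start on the reverse strand, and in none of the RRM1, RRM2 and TK1 windows. Over all 35116 promoter windows of 300 bases (250 before and 50 after a start), 3.31% held E2F letters, 15.2% the CHR, 34.6% a CCAAT box and 45% a GC box. In the window of the outermost start of each of the 9 genes, 2 held E2F letters (TYMS and DCK), 1 the CHR (RRM1), 3 a CCAAT box (RRM1, RRM2 and DTYMK) and 5 a GC box (RRM1, RRM2, TK1, DTYMK and DCK). Some genes have further starts, which made 14 windows in all, and inner starts added matches. DUT held E2F, CHR and GC box letters at inner starts. The CCAAT box occurred at positions -123, -93 and -66 at an inner start of RRM2. At an inner start of TK1 the CCAAT box occurred in reverse at -77 and -46. TK2 and CMPK1 had no match to any of the 4 motifs. A match is a string of letters and not a bound site, and its absence from these windows says nothing of binding elsewhere.

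The hairpin's target was lower on the shKDM4A array. KDM4A read -0.45 and -0.73 in shKDM4A cells over its 2 probe sets, against 0.45 and 0.73 in control cells, a difference of -1.18 ± 0.40 (SD, n = 2 probe sets) or 2.26-fold. Hybridisation spike-ins, added at the same amount to every array, had a difference of -0.0099 ± 0.045 (SD, n = 18 probe sets). The gap between 3′ and 5′ control probe sets, which moves with RNA integrity, shifted by -0.12 for ACTB and -0.097 for GAPDH, and its part in the results was not tested. The median over all 17689 genes was 0.020, and their quartiles were -0.14 and 0.18.

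All 9 enzymes had a gene value below 0, against 46.3% of all genes. RRM2, TK1 and CMPK1 were at least 2-fold lower in shKDM4A cells, 3 of 9 genes, where 1.44% of all genes were. With RRM1, 4 of 9 were at least 1.5-fold lower, against 4.38% of all genes. None was 2-fold higher, against 1.16% of all genes. The enzymes were chosen with earlier results of these data known, so these shares are a description only. The median over the 9 enzymes was -0.50, a 1.41-fold lower level. In order from the lowest, the gene values were RRM2, TK1, CMPK1, RRM1, TK2, DUT, DTYMK, TYMS and DCK, and 7 of the 9 lay below the lower quartile of all genes. At the level of probe sets, 21 of 23 lay below 0, against 46.7% of all probe sets with 1 gene, and 5 were at least 2-fold lower, against 2.39%. Probe sets of 1 gene share their target, so these 23 are not independent. In these bulk cultures fewer cells in S phase and less of each RNA per cell cannot be told apart.

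**Figure D1:**
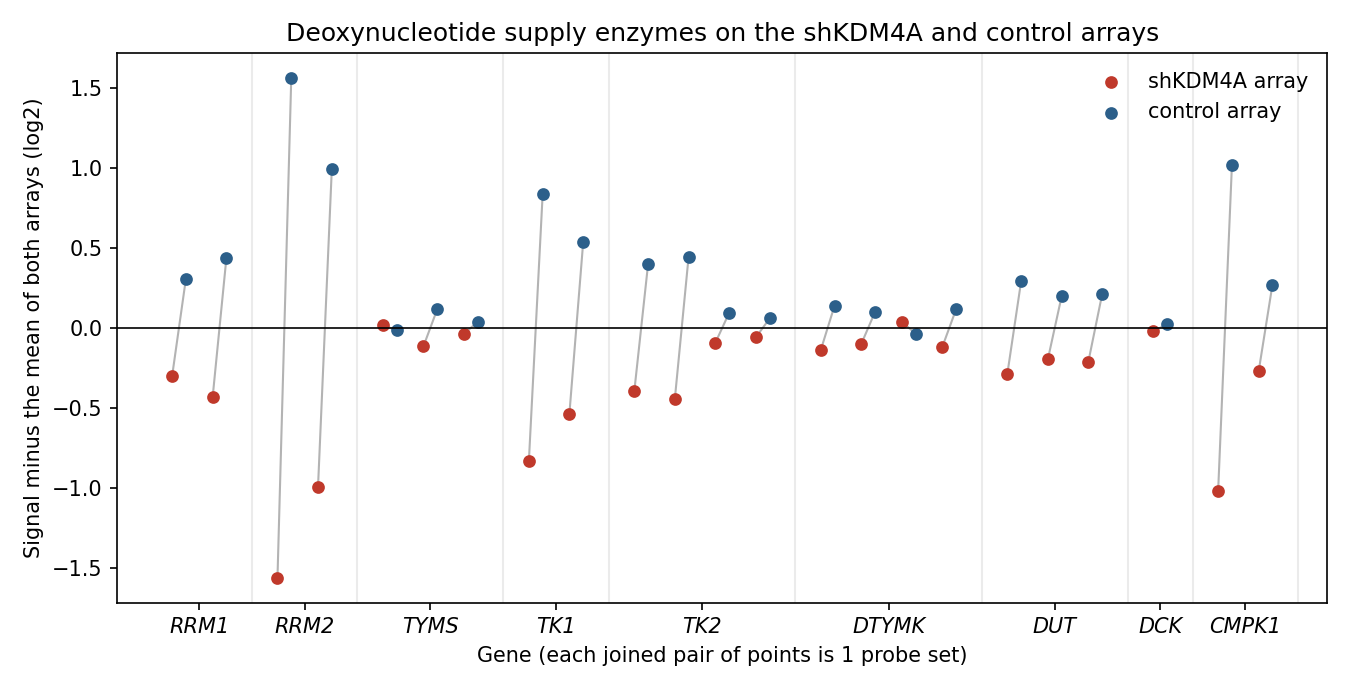
Centred log2 values of the 23 probe sets of the 9 enzymes. Each joined pair is 1 probe set, with the shKDM4A array (red, left) and the control array (blue, right), and the pairs mirror each other because of the centring. RRM2, TK1 and 1 of 2 CMPK1 probe sets are the widest pairs, while TYMS, DTYMK and DCK lie close to 0.

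The subunits of ribonucleotide reductase were both lower, by unequal amounts. RRM2 read -1.56 and -0.99 in shKDM4A cells, against 1.56 and 0.99 in control cells. Both probe sets were thus far apart between the arrays, and the gene value was -2.55 ± 0.80 (SD, n = 2 probe sets), or 5.86-fold lower. Of 17689 genes, 18 had a lower value. Probe set 201890_at gave -3.12 and probe set 209773_s_at gave -1.98, so the size of the RRM2 difference runs from 3.96-fold to 8.69-fold with the probe set, and each alone passed 2-fold. RRM1 read -0.30 and -0.44 in shKDM4A cells, against 0.30 and 0.44 in control cells. Its gene value of -0.74 ± 0.19 (SD, n = 2 probe sets) was 1.67-fold lower, short of 2-fold, and 2.72% of all genes lay below it. The RRM2 value minus the RRM1 value was -1.81, and the lower RRM1 probe set, at -0.87, lay above both RRM2 probe sets.

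RRM2B, the alternative small subunit, which serves resting cells and mitochondrial DNA, lay on the other side of 0. It read 0.79 as a difference on its single probe set, 1.73-fold higher in shKDM4A cells and short of 2-fold. The RRM2 value minus the RRM2B value was -3.34 on the log2 scale. Of the proteins that return electrons to the reductase, TXN lay at 0.17 ± 0.17 and GLRX at 0.49 ± 0.35 (SD, n = 2 probe sets each), while the thioredoxin reductase TXNRD1 lay at -0.50 on 1 probe set.

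The 3 enzymes of the thymidylate cycle were nearer to 0 than the reductase subunits. DUT, which hydrolyses dUTP to dUMP and keeps uracil out of DNA, read -0.29, -0.20 and -0.21 in shKDM4A cells, against 0.29, 0.20 and 0.21 in control cells. All 3 probe sets lay on the same side, the gene value was -0.46 ± 0.099 (SD, n = 3 probe sets), and 6.48% of all genes lay below it. Among the members with 2 or more probe sets, DUT had the smallest spread. TYMS, the thymidylate synthase that is the target of fluorouracil, read 0.015, -0.12 and -0.038 in shKDM4A cells, against -0.015, 0.12 and 0.038 in control cells. Its probe sets lay on both sides of 0, and the gene value of -0.092 ± 0.13 (SD, n = 3 probe sets) was smaller than their spread. DTYMK, the thymidylate kinase on which the de novo and salvage routes converge, read -0.14, -0.10, 0.036 and -0.12 in shKDM4A cells, against 0.14, 0.10, -0.036 and 0.12 in control cells. Its gene value was -0.16 ± 0.16 (SD, n = 4 probe sets), about as large as the spread, and 23.0% of all genes lay below it.

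TYMS overlaps the noncoding RNA gene TYMSOS and the protein-coding gene ENOSF1 in the RefSeq annotation. TYMSOS lay at 0.76 on its single probe set, higher in shKDM4A cells but short of 2-fold, while ENOSF1 had no value here. RRM2 and DUT are also overlapped by noncoding genes, none of which had a value here. No gene overlaps the other 6 enzymes.

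The thymidine kinases differed in size. TK1, the cytosolic enzyme, read -0.83 and -0.54 in shKDM4A cells, against 0.83 and 0.54 in control cells. Both probe sets passed 2-fold, at -1.67 for 1554408_a_at and -1.07 for 202338_at, and the gene value was -1.37 ± 0.42 (SD, n = 2 probe sets), or 2.58-fold lower. Of all genes, 0.644% lay below TK1. TK2, the mitochondrial enzyme, read -0.40, -0.44, -0.093 and -0.059 in shKDM4A cells, against 0.40, 0.44, 0.093 and 0.059 in control cells. These fall into 2 pairs: 204276_at and 204227_s_at gave differences of -0.89 and -0.79, whereas 204277_s_at and 240300_at gave -0.19 and -0.12. The probe sets 204276_at and 204277_s_at are assigned to the same source sequence record in the platform annotation, yet 1 belongs to each pair. The stretch of that record that each probe set covers was not examined. The TK2 gene value of -0.50 ± 0.40 (SD, n = 4 probe sets) thus averages unlike readings, though all 4 lay below 0. The TK1 value minus the TK2 value was -0.87 on the log2 scale. The TK1 value minus the TYMS value, the salvage and de novo sources of dTMP, was -1.28.

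DCK, the deoxycytidine kinase that also activates cytarabine and gemcitabine, read -0.022 in shKDM4A cells, against 0.022 in control cells, on its single probe set. The difference of -0.043 was the smallest of the 9, and 39.3% of all genes lay below it. CMPK1 read -1.02 and -0.27 in shKDM4A cells, against 1.02 and 0.27 in control cells. Its probe sets disagreed in size, at -2.03 for 217870_s_at and -0.54 for 222448_s_at. The gene value of -1.29 ± 1.06 (SD, n = 2 probe sets), or 2.44-fold lower, passed 2-fold through the first alone. Only 0.648% of the 8944 genes with 2 or more probe sets had a spread as large as that of CMPK1, and 0.33 was the SD within a gene pooled over all of these. Over the 8 members with 2 or more probe sets, all probe sets lay below 0 in 6, against 21.6% of genes with 2 or more probe sets.

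**Figure D2:**
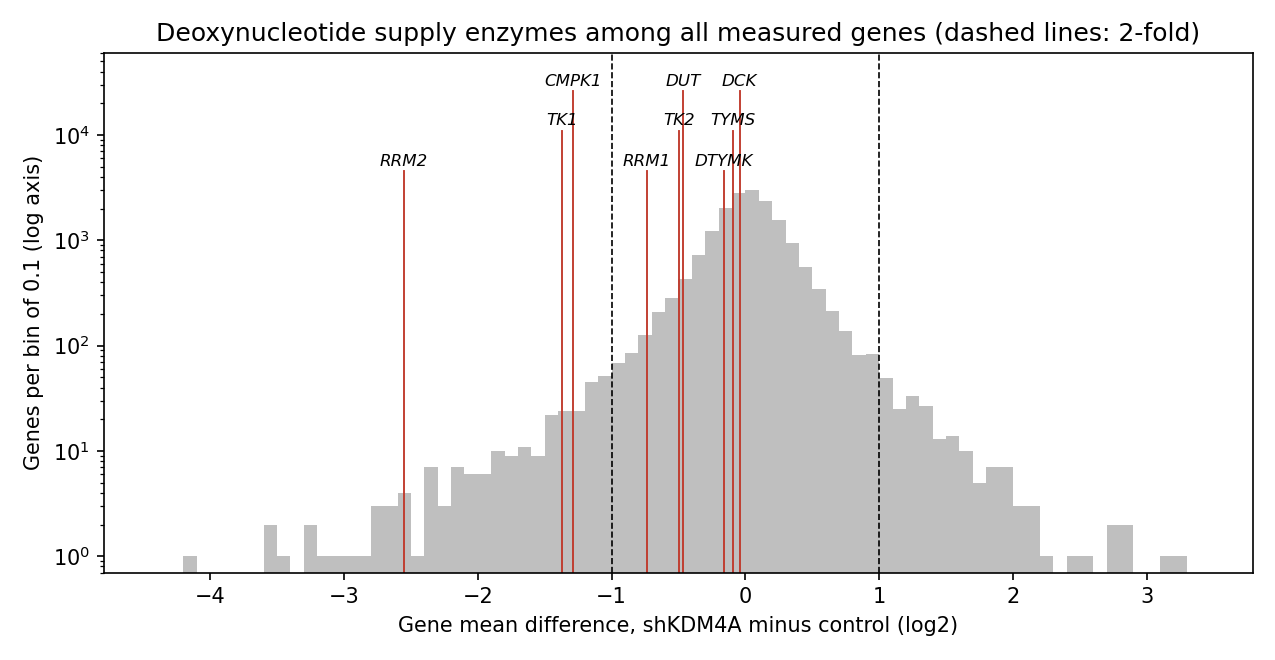
Distribution of the gene mean difference, shKDM4A minus control, over 17689 genes in bins of 0.1 on the log2 scale, with a log count axis. Red lines mark the 9 enzymes and dashed lines mark 2-fold. RRM2 lies at -2.55 in the far lower tail, TK1 and CMPK1 lie beyond the 2-fold line, and DCK, TYMS and DTYMK lie near the centre.

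Other enzymes that feed the deoxynucleotide pools lay mostly above 0. Of 11 measured genes of this kind, 8 lay above 0 and 3 below, where 46.3% of all genes lay below 0. None passed 2-fold either way, where 1.44% of all genes were at least 2-fold lower and 1.16% at least 2-fold higher. The median was 0.25, against 0.020 over all genes. Besides RRM2B, the highest was NME4, a mitochondrial nucleoside diphosphate kinase, at 0.70. DGUOK, the mitochondrial deoxyguanosine kinase that works beside TK2, lay at 0.42 ± 0.45 (SD, n = 3 probe sets), smaller than its own spread. The adenylate kinase AK1 lay at 0.46 ± 0.18 and the guanylate kinase GUK1 at 0.23 ± 0.13 (SD, n = 2 probe sets each), and NME1 lay at 0.25. The lower genes besides TXNRD1 were CMPK2, a mitochondrial UMP-CMP kinase, at -0.58, and DCTD, which deaminates dCMP to dUMP for TYMS, at -0.34 ± 0.081 (SD, n = 3 probe sets).

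Genes that break down deoxynucleotides or clean the pool lay around 0. Of 12 measured, 8 lay below 0 and 4 above, where 46.3% of all genes lay below 0. None passed 2-fold, where 1.44% of all genes were at least 2-fold lower and 1.16% at least 2-fold higher. The median was -0.055. SAMHD1, the dNTP triphosphohydrolase, lay at -0.021 ± 0.13 (SD, n = 5 probe sets). The lowest was PNP, the purine nucleoside phosphorylase, at -0.38. Next came NUDT1, which hydrolyses oxidised purine nucleotides, at -0.31 and the deoxynucleotidase NT5C at -0.29 ± 0.44 (SD, n = 2 probe sets). The highest were DCTPP1, which hydrolyses dCTP and its analogs, at 0.39 and ADA, adenosine deaminase, at 0.34 ± 0.048 (SD, n = 2 probe sets). The values of DERA, CDA, TYMP, NT5M, UPP1 and NT5C3A ran from -0.14 to 0.21.

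Of 5 carriers, 4 lay above 0 and 1 was at least 2-fold lower. Among all genes, 46.3% lay below 0 and 1.44% were at least 2-fold lower. The equilibrative nucleoside transporters read 0.48 ± 0.32 for SLC29A1 (SD, n = 2 probe sets), 0.096 ± 0.21 for SLC29A2 (SD, n = 5 probe sets) and 0.38 for SLC29A3 on 1 probe set. The mitochondrial pyrimidine nucleotide carriers lay on opposite sides of 0. SLC25A33 lay at 0.34 on 1 probe set. SLC25A36 read -1.18, -0.76, -0.50 and -0.23 in shKDM4A cells, against 1.18, 0.76, 0.50 and 0.23 in control cells, a difference of -1.34 ± 0.80 (SD, n = 4 probe sets) or 2.53-fold lower. All 4 of its probe sets lay below 0, and 3 of them passed 2-fold.

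Replication licensing and fork genes, which use the deoxynucleotides, lay at a median of -0.41 over 31 genes, against -0.50 for the 9 enzymes. Of the 31, 29 lay below 0, against 46.3% of all genes, and 6 were at least 2-fold lower, against 1.44% of all genes. The 4 farthest from 0 were CDC6, a helicase loader, at -1.75, POLE2, of DNA polymerase epsilon, at -1.68, PRIM1, of primase, at -1.49 and GINS1, of the replicative helicase, at -1.38. De novo purine and pyrimidine synthesis lay at a median of -0.18 over 14 genes, with 12 below 0, against 46.3% of all genes. None of the 14 passed 2-fold, where 1.44% of all genes were at least 2-fold lower and 1.16% at least 2-fold higher. CTPS1, the CTP synthase, lay at 0.996 on its single probe set, just short of 2-fold higher, opposite to IMPDH2 at -0.66, ATIC at -0.44 and PPAT at -0.41 ± 0.39 (SD, n = 3 probe sets), which make purine nucleotides. No test of the difference between lists could be had from 1 array in each group.

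The 11 measured regulators include E2F transcription factors and the ubiquitin ligase parts that turn over RRM2. Of these, 8 lay above 0 and 3 below, where 46.3% of all genes lay below 0. None passed 2-fold, where 1.44% of all genes were at least 2-fold lower and 1.16% at least 2-fold higher. The median of the regulators was 0.13. E2F3 lay at 0.76 ± 0.26, E2F5 at 0.69 ± 0.43 and E2F1 at -0.30 ± 0.040 (SD, n = 2 probe sets each). CCNF, the cyclin that marks RRM2 for degradation, lay at 0.29 ± 0.34 (SD, n = 2 probe sets), smaller than its spread. The median over markers of luminal cells and of other cell types was between -0.22 and 0.11 in each list: 0.11 over 8 luminal prostate genes, -0.22 over 3 basal genes, 0.044 over 5 fibroblast and smooth muscle genes and 0.012 over 3 leukocyte genes. FOXA1, at -1.16 with probe sets at -2.39 and 0.079, was the only 1 of these 19 to pass 2-fold. Of all genes, 1.44% were at least 2-fold lower and 1.16% at least 2-fold higher. Members of a list went both ways. Of the 8 luminal genes 6 lay above 0, among them FOLH1 at 0.48 and KRT8 at 0.41 on 1 probe set each. The 2 below were FOXA1 and TMPRSS2, an androgen-induced protease of luminal cells, at -0.76 ± 0.16 (SD, n = 4 probe sets). The fibrillar collagen genes COL1A1 and COL3A1 lay at 0.73 ± 0.76 (SD, n = 4 probe sets) and 0.63 ± 0.68 (SD, n = 3 probe sets). In the same list FAP lay at -0.29 on 1 probe set and MYH11 at -0.22 ± 0.40 (SD, n = 6 probe sets). The part of these markers in the results was not tested.

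**Figure D3:**
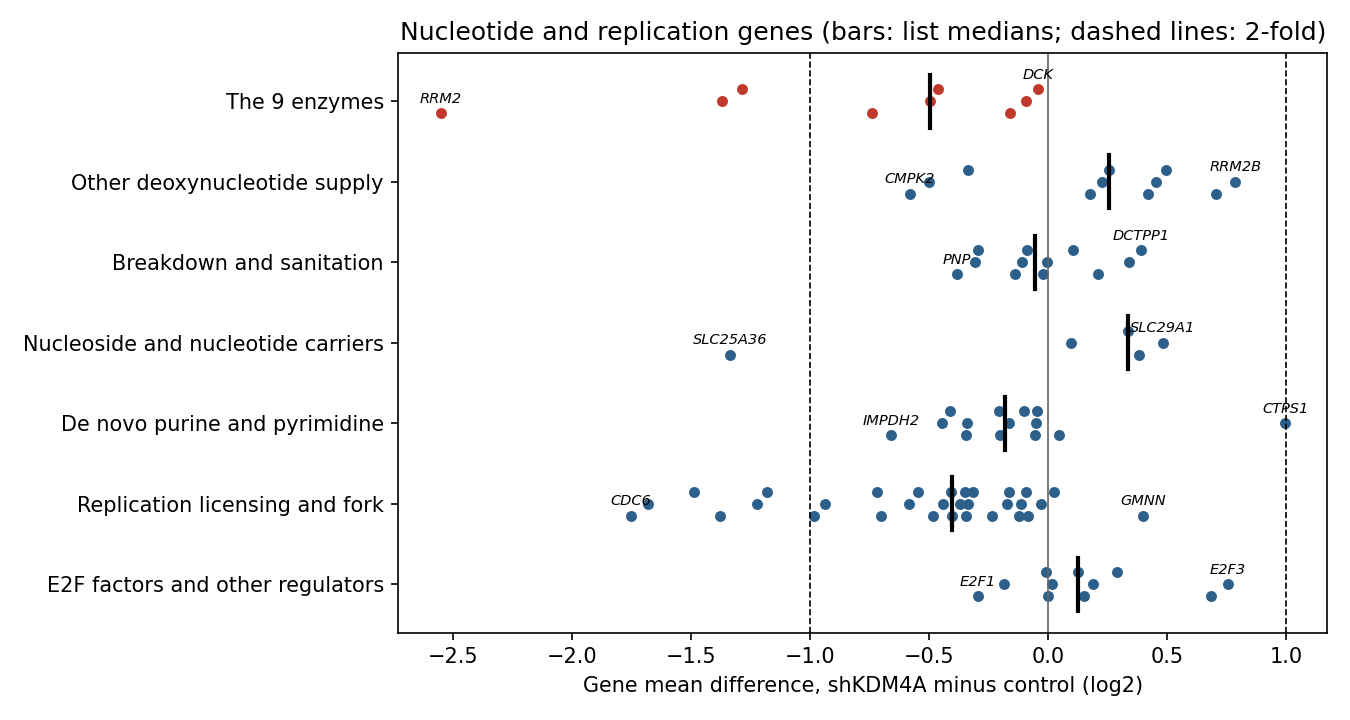
Gene mean differences, shKDM4A minus control, on the log2 scale. Each point is a gene, bars are list medians and dashed lines mark 2-fold. The 9 enzymes (red, top row, median -0.50) and the replication genes (median -0.41) lie mostly below 0, other deoxynucleotide supply genes (median 0.25) lie mostly above it, and SLC25A36 stands apart from the other carriers.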

How the data were processed

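RNA of 1 shKDM4A and 1 control culture of LNCaP cells was measured on Affymetrix arrays, from 3 µg of total RNA each, per the labels' protocols. The authors deposited values made with RMA, per the submitters' processing notes, which give no version. How the values were centred, their log base and any filter before deposit are not stated in these sources, and the deposited values were taken as log2 because RMA works on that scale. The file holds 44672 probe sets, of which 34880 have 1 gene in the platform annotation, 1619 several, 8131 are unnamed here and 42 are array controls. Only the first kind entered gene values. Symbols were checked by Entrez identifier against RefSeq genes of GRCh38.p14, which matched 34839 probe sets and changed 0 symbols. No probe set named 1 of the 9 enzymes among several genes.

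A gene value was the mean over probe sets of shKDM4A minus control. Calls followed a size rule of 2-fold (1 on the log2 scale), with no filter on low signal, since centring removed levels. Named genes were all 9 enzymes with every probe set, KDM4A, every gene of the supply, breakdown and carrier lists, the 4 largest differences of the synthesis, replication and regulator lists, and genes overlapping a member. FOXA1, TMPRSS2, FOLH1, KRT8, COL1A1, COL3A1, FAP, MYH11 and GMNN were named after their values were seen. The last was labelled in a plot as the highest replication gene, 0.40. No gene was named for a like pattern, since 2 arrays give a single difference per gene. The enzymes and lists were chosen with earlier results of these data known. The calculation was checked on planted differences. Some listed genes are not reported here. A planned comparison of protein sequences was not made. Alternatives were the median over probe sets, omission of the _x_at and _s_at kinds of probe set (designs that may hit more than 1 transcript), subtraction of the median of all probe sets, other size rules and agreement of probe sets. Python 3.11.15, numpy 2.4.6, pandas 2.3.3 and matplotlib 3.10.9 were used.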

Additional observations from a re-analysis of the deposited data

How the results depend on the processing

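The count of enzymes at least 2-fold lower, 3 of 9, was 1 (RRM2) at a size rule of 3-fold, which 0.458% of all genes passed, and 4 (RRM1 added) at 1.5-fold, which 4.38% of all genes passed. It was 2 of 7 without probe sets ending in _x_at or _s_at, where RRM1 and CMPK1 have no probe set left. It was also 2 of 9 without each gene's probe set farthest from 0, a setting chosen after seeing the data, where CMPK1 lay at -0.54. The count stayed at 3 with medians over probe sets and after subtracting the median difference of all probe sets (0.014). It also stayed at 3 among enzymes whose probe sets all lie below 0. RRM1, RRM2, TK1 and CMPK1 have 2 probe sets each, so their medians equal their means. No probe set of the remaining enzymes passed 2-fold, and no gene value lay within 0.014 of the 2-fold line. Medians and subtraction therefore could not change the count and say nothing of its stability. RRM2 lay at -3.12 with its only probe set outside the _x_at and _s_at kinds and at -1.98 without its farthest one. The median over the enzymes ran from -0.51 to -0.41 over these 4 settings of probe sets and centring, every measured enzyme lay below 0 in each, and none was 2-fold higher in any setting. Without _x_at and _s_at probe sets the median of the regulators was 0.016 (0.13 with them), that of de novo synthesis -0.078 (-0.18 with them), that of breakdown genes -0.0058 (-0.055 with them) and that of luminal markers -0.014 (0.11 with them). The leukocyte median was -0.0025 after subtraction (0.012 before), and the fibroblast and smooth muscle median 0.11 with medians over probe sets (0.044 with means). No paired analysis was possible because each group has 1 array. For the same reason no replicate could be left out. The planned addition of probe sets naming an enzyme among several genes gave no value, since there were 0. Signal over background is unknown for every probe set, so for TYMS, DTYMK and DCK a small difference and a signal too dim to measure cannot be told apart. The same holds for the smaller probe set readings of CMPK1 and TK2 and for genes near 0 in the other lists.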
